A study of Mus musculus with 12 samples.

Results

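The 456 cells described here carried cluster number 1 in the authors' table of cells, among 12021 T and natural killer (T/NK) cells and 93126 cells in all. They came from MC38 tumors, grown from a mouse colon carcinoma line injected under the skin of female mice aged 8 to 12 weeks. Hosts were C57BL/6J (B6) animals or F1 animals of C57BL/6J and 1 Collaborative Cross (CC) strain (CC001/UncJ, CC002/UncJ, CC007/UncJ, CC036/UncJ, CC075/UncJ, CC079/TauUncJ or CC080/TauUncJ), an inbred panel descended from several founder strains. A single injection held 200 µg of either isotype control or aPD1, an antibody that blocks the checkpoint receptor PD-1, and 48 h later the tumor was removed, frozen and sorted to 90% CD45+ and 10% CD45- cells. The measurement was single-cell RNA sequencing with 5′ chemistry, in which each captured transcript is counted by its unique molecular identifier (UMI). The 48 tumors were marked with hashtag antibodies, 4 to a pool, in 12 pools, and the tumor was the replicate.

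CC001, CC002 and CC075 F1 hosts are called responder strains and CC036, CC079 and CC080 F1 hosts non-responder strains. The study drew these classes from tumor growth in other animals, and the labels of the samples give strains alone. Hosts of B6 and CC007 had no class. Class is a property of the strain. Tests between classes treated tumors as independent, so their p-values measure the spread between tumors and not that between strains. Isotype and aPD1 tumors always carried different hashtags, so treatment and hashtag cannot be told apart.

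A T cell that meets its antigen can divide rapidly, and in tumors the CD8 T cells that kill target cells, the CD4 helper cells and the Foxp3+ regulatory T cells all do so. During the S phase of the cell cycle, when DNA is copied, a cell needs new histones, the proteins around which DNA is wound, and the genes of the replication-dependent histones are then switched on together from gene clusters. Most of their transcripts end in a stem-loop in place of a poly(A) tail, so a method that primes on poly(A) captures them only in part, and the histone levels given here are not total histone mRNA. Antibodies against PD-1 release a brake on T cells, and division of T cells is a known early response to them.

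The genes that most set these cells apart were histone genes, so the upstream sequences of 5 of them are shown first, with Neil3, a DNA repair glycosylase gene of the same leading group, for contrast. Each sequence is the 120 bases just before the transcription start in RefSeq (build GRCm38.p6), 5′ to 3′ on the gene's strand. Capitals mark the CCAAT motif, which on the other strand reads ATTGG, and the TATAAA motif, searched on both strands, which do not overlap each other.
Hist1h2af, chr13:23533755-23533874, plus strand: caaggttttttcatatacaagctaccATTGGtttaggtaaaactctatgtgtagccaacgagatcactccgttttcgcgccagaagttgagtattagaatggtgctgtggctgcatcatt
Hist1h2ak, chr13:21753913-21754032, minus strand: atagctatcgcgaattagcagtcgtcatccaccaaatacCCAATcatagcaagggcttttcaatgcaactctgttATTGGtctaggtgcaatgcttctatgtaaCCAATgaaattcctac
Hist1h2ab, chr13:23750968-23751087, plus strand: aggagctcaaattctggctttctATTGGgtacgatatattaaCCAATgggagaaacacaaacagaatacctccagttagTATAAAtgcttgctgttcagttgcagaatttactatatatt
Hist1h2ae, chr13:23571221-23571340, minus strand: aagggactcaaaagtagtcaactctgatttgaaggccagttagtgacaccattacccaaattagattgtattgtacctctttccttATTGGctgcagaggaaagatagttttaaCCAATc
Hist1h1b, chr13:21780626-21780745, minus strand: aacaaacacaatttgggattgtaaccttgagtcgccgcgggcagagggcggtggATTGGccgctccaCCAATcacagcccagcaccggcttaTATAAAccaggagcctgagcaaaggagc
Neil3, chr8:53639066-53639185, minus strand: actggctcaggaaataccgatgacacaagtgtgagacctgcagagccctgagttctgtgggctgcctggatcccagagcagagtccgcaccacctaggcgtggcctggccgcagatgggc

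These 5 histone genes lie in the Hist1 gene cluster of chromosome 13. The CCAAT letters stood in all 12 of the promoters found for the 14 histone genes among the 25 leading genes, in 44 of 57 promoters of the histone genes with a UMI in cluster 1 (77.2%), and in 21.3% of all 32851 mouse promoters of the table. TATAAA stood in 6 of the 12, in 29.8% of the 57, and in 6.34% of all promoters. Both motifs together stood in 6 of the 12 and in 1.36% of all. Among the 9 promoters found for the other leading genes, 6 held CCAAT (66.7%) and 0 held TATAAA. Such matches describe letters in a window and are not binding sites.

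The number of cluster 1 cells per tumor was low, from 0 to 41 with a median of 7. In responder strains, 10 isotype tumors held 80 of these cells (1 to 17 per tumor) and 10 aPD1 tumors held 144 (4 to 29). In non-responder strains, 9 isotype tumors held 71 (2 to 21) and 9 aPD1 tumors held 38 (0 to 11). The 5 isotype and 5 aPD1 tumors of B6 and CC007 hosts held 83 and 40. Gene levels per tumor were taken in the 31 tumors with at least 5 such cells. A cluster 1 cell had a median of 4578 UMIs and 1863 genes, against 2823 UMIs and 1259 genes in cluster 3, the largest group of CD8 T cells. Of the 456 barcodes, 46 (10.1%) also occurred in another library, as did 10.9% of all cells, and 0 were shared between libraries within cluster 1.

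One tumor stood apart from its label before any comparison. The T/NK cells of the CC080 aPD1 tumor of pool 4 held Xist, the transcript made from the inactive X chromosome of females, at 8.87 CPM, the counts scaled to a total of 1000000 ( 5 UMIs in 216 cells), whereas the other tumors ranged from 467 to 916 CPM. Transcripts of the 3 Y chromosome genes in the table gave 0 UMIs in this tumor and 5 over all tumors, so they could not decide its sex. Its animal identifier also stands on the CC080 isotype tumor of pool 3. It held 11 cluster 1 cells, and the class difference under aPD1 in the share of all cells and in the share with a CD8 UMI, and the counts of genes called, are also given without it.

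Cluster 1 carried the T cell markers proposed for it but was not led by them. Cd3e, a signalling chain of the T cell receptor complex, was found in 81.6% of cells, and its level over the summed cells was 800.5 CPM. Cd8a and Cd8b1, the chains of the CD8 co-receptor, were each at 453 CPM. In cluster 3 they were at 731 and 641 CPM, and in macrophage cluster 2 at 0.386 and 0.488 CPM. Themis, which tunes receptor signalling during T cell development, was at 464 CPM against 453 in cluster 3, and Tox, a transcription factor of chronically stimulated T cells, at 589 against 580.3 CPM. Tcrg-C2, a constant segment of the T cell receptor gamma locus, was at 59.3 against 65.4 CPM. The other 10 markers of gamma-delta T cells stayed below 10 CPM, with Sox13, Il17a, Cd163l1 and Blk at 0, and Tcrg-C2 was at 77.4 CPM in the cells with a CD8 UMI and at 0 in those with a Cd4 or Foxp3 UMI alone. When 3217 genes were ranked by their fold over all other T/NK cells, the proposed markers stood between rank 234 (Tcrg-C2) and rank 603 (Cd8a). The cells are therefore called by their leading genes, as histone-high T cells.

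Of the 25 leading genes, 14 were histone genes. Of these, 13 were Hist1 genes of chromosome 13, between positions 21722044 and 23764406 (GRCm38). Hist1h2af, which encodes histone H2A, had the largest fold: its level was 179.8 CPM in cluster 1 and 11.3 CPM in the other T/NK cells, a 14.7-fold difference. Hist1h2ak stood at 198 against 15 CPM (12.5-fold) and Hist1h2ab at 182 against 13.8 CPM (12.4-fold). Hist1h2ae was at 1380.3 against 129.8 CPM (10.6-fold), and 83.1% of cluster 1 cells held at least 1 of its UMIs. Hist1h1b, a linker histone H1 gene, was at 978 against 109 CPM (8.86-fold), in 80.0% of cells. Clusters were drawn by the authors on the expression of these same cells, so these folds describe the cluster and were not tested.

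Histone genes resemble one another, and counting can lose reads that match several copies or split them. Of the stretches of 50 bases in the Hist1h2ap transcript, 93.1% also occurred in another histone gene, as did 79.7% of those of Hist1h2af and 43.2% of those of Hist1h2ae. For the linker genes Hist1h1b and Hist1h1a the value was 0 and for Hist1h1d it was 2.21%. The levels of single H2A genes are therefore uncertain. The sum over all histone genes does not depend on how reads are split between copies, but reads lost in counting would be missing from it too, which was not tested. It was 7833 CPM in cluster 1, 999 CPM in the other T/NK cells together (a 7.84-fold difference) and 728 CPM in cluster 3. In cluster 8, whose cells held the most Foxp3, it was 1935 CPM. In the 31 tumors the histone sum ranged from 3552 to 12446 CPM in cluster 1 (median 7887) and from 172 to 1596 CPM in cluster 3. The ranges did not overlap, and cluster 1 lay above cluster 3 in 31 of 31 tumors. Like the folds, these counts describe clusters drawn on the same cells and were not tested. Of 66 histone genes in the table, 62 had a UMI in cluster 1 and 62 were higher than in clusters 3 and 13 together, 13 being a second group of CD8 T cells.

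**Figure D1:**
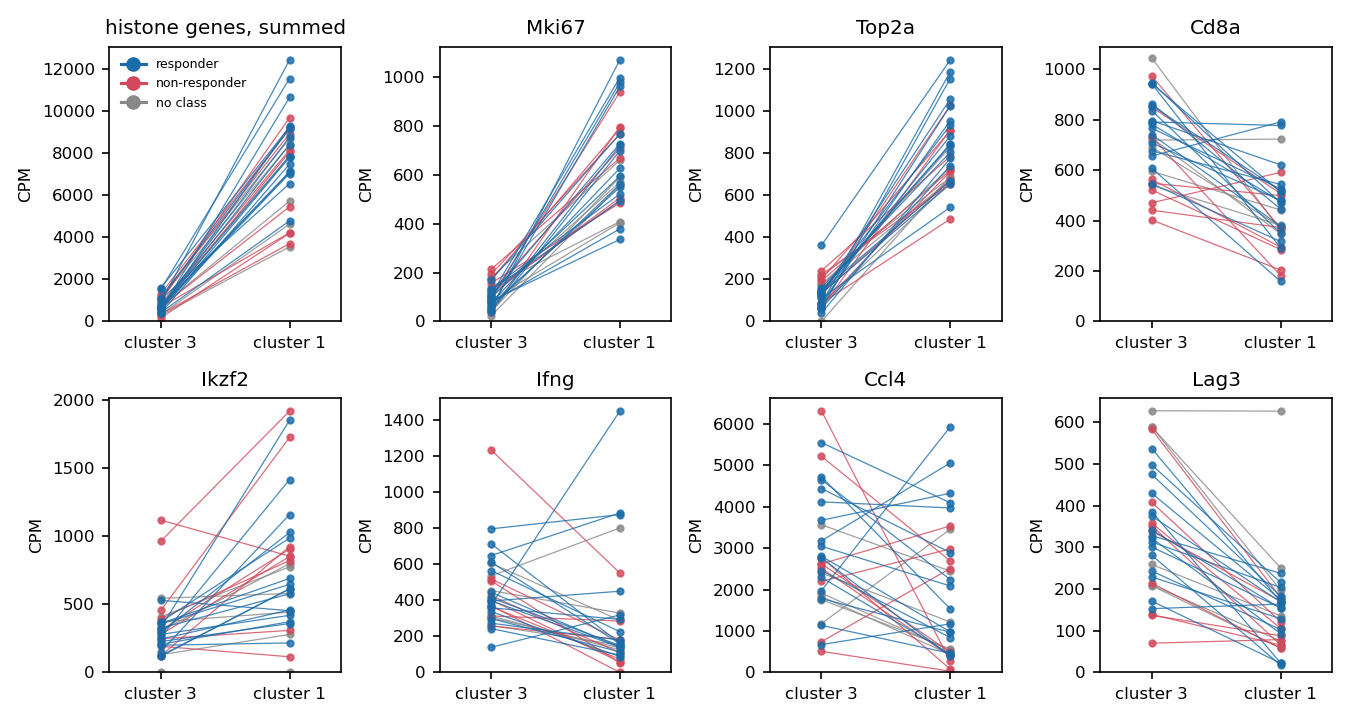
Level (CPM) of the summed histone genes and of Mki67, Top2a, Cd8a, Ikzf2, Ifng, Ccl4 and Lag3 in cluster 3 and cluster 1 of the same 31 tumors, each pair joined by a line coloured by strain class. The histone sum, Mki67 and Top2a were higher in cluster 1 in all 31 tumors and Ikzf2 in 27 (all cells of cluster 1, whatever their lineage), whereas Cd8a was lower in 28 and Lag3 in 29. These counts describe clusters drawn on the same cells and were not tested.

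The other 11 leading genes are given singly, and no shared function was tested. Esco2, which acetylates cohesin during S phase, was at 128 CPM against 11.5 in the other T/NK cells (10.4-fold), Neil3 at 164 against 16.3 CPM (9.52-fold), and the chromosome motor gene Kif4 at 118 against 13.9 CPM (7.96-fold). The kinetochore genes followed, with Cenpp at 175 against 21.5 CPM, Spc25 at 142 against 17.8 CPM, then the mitotic kinase genes, with Mastl at 52.5 against 5.99 CPM and Ttk at 61.6 against 7.68 CPM, and the centriole gene Stil at 66.6 against 8.5 CPM. Mxd3, a relative of the Myc antagonists, and Parpbp, which restrains homologous recombination, were 7.70-fold and 7.67-fold higher. Gm20628 was at 291 against 22.4 CPM. It is annotated as antisense RNA at chr3:96267075-96270289, beside genes of the Hist2 cluster, and whether its UMIs came from that strand could not be checked in counts.

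Every gene of the list of 16 cell-cycle genes was higher in cluster 1 than in clusters 3 and 13 together. Their sum was 9113 CPM in cluster 1, 2549 CPM in cluster 3 and 3970.1 CPM in cluster 8. Mki67, the proliferation antigen Ki-67, was at 612 CPM (336 to 1072 over tumors, median 628), and in cluster 3 at 93.8 CPM (22.7 to 214 over tumors). These ranges did not overlap. Top2a, the topoisomerase that untangles copied DNA, was at 795 against 127 CPM, Stmn1, a regulator of microtubules, at 1167 against 264 CPM, and Rrm2, a subunit of the enzyme that makes deoxynucleotides, at 279 against 33.8 CPM. All of these were higher in 31 of 31 tumors, which again describes clusters drawn on the same cells. The smallest difference was that of Mcm2, a subunit of the replication helicase, at 75.2 against 56.3 CPM, higher in 17 of 31 tumors. For comparison, 2055 of the 3415 genes with at least 50 CPM were higher in cluster 1 than in clusters 3 and 13, with a median log2 difference of 0.08. Of these, 266 were at least 2-fold higher and 34 at least 2-fold lower.

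The authors regressed out a cell-cycle phase score before they clustered, and cells with cycle transcripts were therefore also looked for elsewhere. Each T/NK cell was thinned to 1000 UMIs. Cells with fewer were left out: 16 of 456 in cluster 1, 209 of 2809 in cluster 3, 649 of 2206 in cluster 8 and 911 of 2933 in cluster 7. Among the rest, cells with at least 5 UMIs of the 16 cell-cycle genes were counted. In cluster 1 these were 352 of 440 cells (80.0%, median 9.00 UMIs). The share was 12.7% in cluster 3, 15.2% in cluster 8 (whose cells held the most Foxp3), 17.2% in cluster 12 (where 72.3% of cells held at least 3 macrophage UMIs), 8.00% in natural killer cluster 24, 4.23% in cluster 13 and 2.03% in macrophage cluster 2. Cluster 1 held 27.5% of the 1278 such T/NK cells, cluster 3 held 25.7% and cluster 8 held 18.5%. Most T/NK cells with cycle transcripts thus had another cluster number, and this split leaves out more cells of clusters 7 and 8 than of cluster 1.

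**Figure D2:**
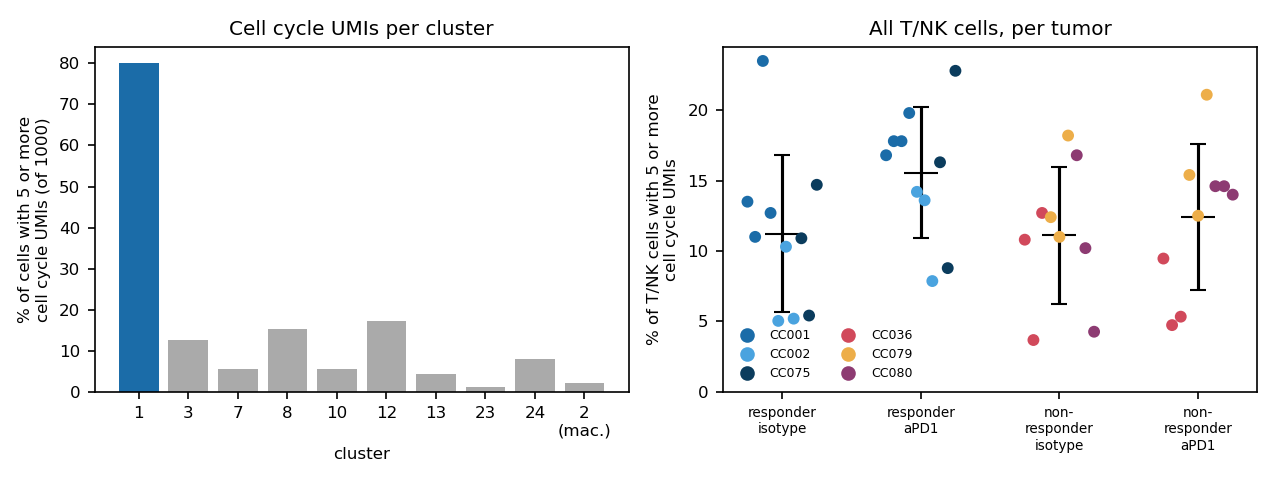
Left, share of cells with at least 5 UMIs of 16 cell-cycle genes after thinning to 1000 UMIs (percent) in each T/NK cluster and in macrophage cluster 2 (mac.), where cluster 1 stands at 80.0% and the next, cluster 12, at 17.2%. Right, share of such cells among the T/NK cells with at least 1000 UMIs in each tumor (points coloured by strain, mean and SD in black). In responder strains it was 15.6% under aPD1 and 11.2% under isotype.

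Most genes of effector function on 2 lists were lower in cluster 1 than in clusters 3 and 13 together. The list of 12 cytotoxic granule genes had 0 members higher in cluster 1, with a median log2 difference of -0.78. Prf1, the pore-forming protein perforin, was at 95.6 against 248 CPM, and Nkg7, a granule membrane protein, at 1522 against 2299 CPM. Each was lower than in cluster 3 of the same tumor in 29 of 31 tumors. Cluster 1 also held cells without a CD8 UMI, and in its cells with a CD8 UMI alone Prf1 was at 119 and Nkg7 at 1847 CPM, against 261 and 2409.9 CPM in cluster 3. Gzmb, a granzyme, was at 384 CPM in cluster 1, 559 in cluster 3 and 1409.9 in cluster 13. Gzmd and Gzme, each at 0.906 CPM, were at 54.6 and 35.7 CPM in cluster 3.

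Of 12 T cell cytokine and chemokine genes, 2 were higher in cluster 1 (Tnfsf8 at 38.1 against 37.5 and Il10 at 19.9 against 15.6 CPM) and the median log2 difference was -1.46. Against cluster 3 alone, Tnfsf8 was higher in 3 and lower in 25 of 31 tumors, and Il10 higher in 8 and lower in 4. Members of this list and Ccl1 were among the 10 genes of largest decrease. Ccl1 stood at 61.6 against 474 CPM, the chemokine Xcl1 at 245 against 1205 CPM, the interferon gene Ifng at 368 against 1533 CPM, and the chemokine Ccl4 at 2150.4 against 7705 CPM. Much of each gap lay in cluster 13, where Ifng reached 6314, Xcl1 5482 and Ccl4 28674 CPM. In cluster 3 Ifng was at 534, Xcl1 at 311 and Ccl4 at 3324 CPM, and cluster 1 was the lower in 25, 24 and 23 of 31 tumors. Ccl5, another chemokine, was at 666 CPM in cluster 1 and 1722 CPM in cluster 3, and was lower in 30 of 31 tumors. In the cells with a CD8 UMI alone Ifng was at 460.0, Xcl1 at 244, Ccl4 at 2594 and Ccl5 at 732 CPM, each below its level in cluster 3, as sums over cells with no test. Also among the 10 genes of largest decrease were Pou2f2 (15.9 against 54.2 CPM), Crtam (29.9 against 97.5), Cd200 (38.5 against 124), Slc17a6 (26.3 against 77.0) and Gpm6b (31.3 against 90.3). Over 15 genes of the T cell receptor and its proximal signalling, 2 were higher than in clusters 3 and 13, with a median log2 difference of -0.24.

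Of 10 checkpoint receptors 3 were higher than in clusters 3 and 13 (median log2 difference -0.24), and they differed among themselves. Lag3, which binds MHC class II, was at 145 CPM in cluster 1 and 373 CPM in cluster 3 and was lower in 29 of 31 tumors. Pdcd1, which encodes PD-1, was at 191 against 302 CPM (lower in 27 of 31). In the cells with a CD8 UMI alone Lag3 was at 177 and Pdcd1 at 224 CPM. Tigit was at 156 against 175 CPM, and Ctla4 was at 355 against 264 CPM, higher in 21 of 31. In the cluster 1 cells with a CD8 UMI alone Ctla4 was at 187 CPM, below cluster 3, and in those with a Cd4 or Foxp3 UMI alone at 995 CPM. Ikzf2, the transcription factor Helios, was at 689 CPM against 292 CPM and was higher in 27 of 31 tumors, with 379 CPM in the cells with a CD8 UMI alone and 1874 CPM in those with a Cd4 or Foxp3 UMI alone. Tcf7, a factor of naive and memory T cells, was at 7.70 CPM in cluster 1, 10.6 in cluster 3 and 153 in cluster 7.

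Cluster 1 was not a single lineage. A UMI of Cd8a or Cd8b1 was found in 307 of 456 cells (67.3%, exact 95% binomial interval 62.8 to 71.6%, which covers counting error only), with 88.2% in cluster 3 and 0.348% in macrophage cluster 2 at a median of 3881 UMIs. After thinning to 1000 UMIs the share was 45.7% in cluster 1, 70.0% in cluster 3, 46.5% in cluster 13, 5.97% in cluster 8 and 0.0704% in cluster 2. Another 62 cells held a Cd4 or Foxp3 UMI and none of CD8. The cells with both kinds numbered 4. The remaining 87 held neither, at a median of 2166 UMIs per cell. Foxp3, the defining factor of regulatory T cells, was found in 49 cells (10.7%), in 0.356% of cluster 3, 6.02% of cluster 13 and 38.5% of cluster 8. After thinning these shares were 2.05%, 0.0769%, 2.54% and 29.2%, and 0.0379% in macrophage cluster 2. A Cd4 UMI was then found in 1.82% of cluster 1 and 3.72% of cluster 13. A mix of lineage UMIs was thus not particular to cluster 1.

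The cells with a Cd4 or Foxp3 UMI alone held more of other regulatory T cell genes, which were not used to pick them, than the cells with a CD8 UMI alone. Beside Ikzf2 and Ctla4, given above, Il2ra, the high-affinity chain of the IL-2 receptor, was at 571 against 92.0 CPM. Nkg7 was at 431 against 1847 CPM. The cells with neither kind of UMI had Ikzf2 at 1339, Ctla4 at 709.6 and Nkg7 at 701 CPM. The histone sum was high in all of them, at 7507 CPM in the CD8 cells, 9582 in the Cd4 or Foxp3 cells and 7827 in those with neither. These are sums over cells of many tumors and carry no test.

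The cells were also pooled by host strain, as a description with no test, since cells of 1 tumor are not replicates. In CC079 hosts a CD8 UMI was found in 2 of 21 cluster 1 cells (9.52%, binomial interval 1.17 to 30.4%, counting error only). Of the 21, 13 held a Cd4 or Foxp3 UMI alone. These 21 cells came from 6 tumors, of which 1 had at least 5 of them (12.5% in that tumor), so no spread between CC079 tumors can be given. CC002 had the highest share with 81.4%, followed by CC075 with 78.7%, B6 with 75.7%, CC001 with 68.8%, CC036 with 61.1%, CC080 with 59.6% and CC007 with 55.1%. These shares weight tumors by their cells: 41 of the 49 CC007 cells came from 1 tumor (51.2% with a CD8 UMI), and the other CC007 tumor with at least 5 cells had a CD8 UMI in all 5. Which neighbours in this order differ beyond the spread between tumors was not tested. Depth differed too, with a median of 3278 UMIs per cell in CC036, 3708 in CC007 and 4008 in CC079. In the other strains it was from 4271 (CC080) to 5231 (CC075), and the strains were not compared at equal depth. The ratio of cluster 3 to cluster 8 cells was 0.101 in CC079, 0.575 in CC080, 0.735 in CC007, 1.08 in CC036, 1.57 in CC001, 1.75 in CC002, 2.17 in B6 and 4.38 in CC075. The lowest share with a CD8 UMI and the lowest ratio were those of CC079.

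**Figure D3:**
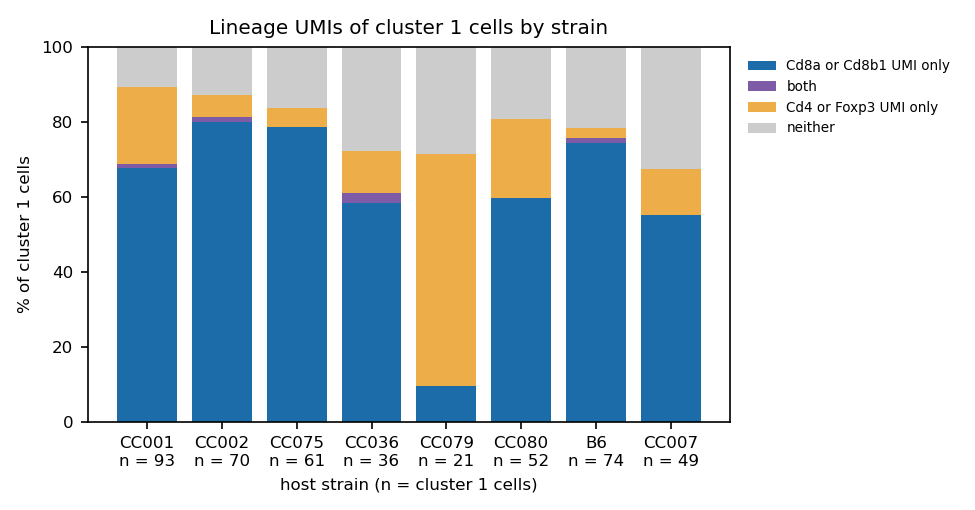
Cells of cluster 1 in each host strain (percent of cells, stacked bars, number of cells under each), divided by UMIs of Cd8a or Cd8b1, of Cd4 or Foxp3, of both or of neither. A CD8 UMI was found in 9.52% of CC079 cells and in 55.1% to 81.4% of those of the other strains.

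Over single tumors with at least 5 cluster 1 cells, the share with a CD8 UMI in aPD1 tumors was 72.5% ± 14.0 (SD, n = 9) in responder strains and 55.8% ± 13.3 (n = 4) in non-responder strains, of which none was CC079. This measure was added after the data were seen. The difference did not pass the test (two-sided exact permutation test of ranks, p = 0.0867, adjusted p = 0.434 over 5 comparisons). Without the CC080 aPD1 tumor of pool 4 the non-responder mean was 62.2% ± 3.85 (n = 3), and the difference fell from 16.8 to 10.3 points (exact permutation p = 0.236, adjusted p = 0.926). In isotype tumors the shares were 71.3% ± 11.0 (n = 7) and 59.4% ± 29.3 (n = 5), with p = 0.556 in the same exact test (adjusted p = 0.858). The share falls with fewer UMIs per cell. All cluster 1 cells of aPD1 tumors had a median of 4854 UMIs in responder and 3040.0 in non-responder strains. The classes were not compared at equal depth.

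Markers of other cells were low. The summed level of 10 macrophage markers, all of which had at least 1 UMI, was 118 CPM in cluster 1, 141 in cluster 3 and 14916 in cluster 2. Over the 4 groups of tumors it ranged from 0 to 373 CPM, with medians from 99.2 to 149. Lyz2 was at 39.0, Apoe at 33.1 and Adgre1 at 1.81 CPM. The 6 MC38 markers summed to 2.72 CPM with Shisal2b, Krt8 and Cldn4 at 0, the 6 fibroblast markers to 0.906 CPM with Col1a1, Bgn, Postn and Dcn at 0, and the 6 B cell markers to 42.6 CPM with Cd79a at 0. Markers of cDC1 (14.9 CPM), migratory dendritic cells (14.5) and granulocytic cells (2.72) were likewise near 0. The sums of the cDC2 list (179.8 CPM), the pDC list (135 CPM) and the natural killer list (371 CPM) were 352, 121 and 395 CPM in cluster 3. Possible doublets, cells with at least 3 UMIs of macrophage markers, made up 20 cells (4.39%) of cluster 1 and 2.67% of cluster 3.

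The first comparison asked whether cluster 1 took a different share of the cells in tumors of the strain classes or under aPD1. In aPD1 tumors of responder strains it took from 0.213 to 1.52% of all cells (median 0.483%), and in those of non-responder strains from 0 to 0.593% (median 0.206%). The means were 0.641% ± 0.409 (SD, n = 10) and 0.220% ± 0.175 (SD, n = 9). The 4 highest tumors were of responder strains, and the other 6 of that class overlapped with the non-responder tumors. The difference of 0.422 percentage points had p = 0.00567 in a two-sided exact permutation test of ranks, and adjusted p = 0.0851 over the 15 comparisons of shares, so it did not pass. Strain means were 0.569% in CC001, 0.657% in CC002 and 0.721% in CC075, against 0.272% in CC036, 0.114% in CC079 and 0.273% in CC080. The 2 ranges of strain means did not overlap.

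The outcome of this test turned on a few tumors. Without the CC080 aPD1 tumor of pool 4, the one with little Xist and the highest share (0.593%) of its class, the difference was 0.468 points with adjusted p = 0.0206 in the same exact test. Without CC080 hosts it was 0.448 points (exact p = 0.00300, adjusted p = 0.0450), and without CC079 hosts 0.369 points (exact p = 0.0559, adjusted p = 0.839). Within pools 1 to 6 the difference was 0.494 points (exact p = 0.0317, adjusted p = 0.476) and within pools 7 to 12 it was 0.353 points (exact p = 0.190, adjusted p = 1.00), so neither passed. Without possible doublets it was 0.386 points (adjusted p = 0.321).

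In isotype tumors the classes overlapped throughout, at 0.513% ± 0.272 (n = 10) and 0.430% ± 0.417 (n = 9), with p = 0.447 in the exact permutation test (adjusted p = 0.807). Under aPD1 the share rose in 5 of 10 pairs of tumors from the same pool and responder strain, with means of 0.641% and 0.513% (permutation test, p = 0.577, adjusted p = 0.865). In non-responder strains it was higher under aPD1 in 2 of 9 pairs, with means of 0.220% and 0.430% (exact permutation p = 0.340, adjusted p = 0.763). These tests did not use the pairs. With the pool as a block, the difference of -0.210 points in non-responder strains did not pass (exact sign-flip permutation p = 0.0430, adjusted p = 0.258). Nor did that of 0.129 points in responder strains (exact sign-flip permutation p = 0.350, adjusted p = 0.551). The test of the difference between the classes in the effect of aPD1, the interaction, gave 0.339 points (exact permutation p = 0.156, adjusted p = 0.763). The class difference under aPD1 was therefore not shown to depend on the treatment.

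**Figure D4:**
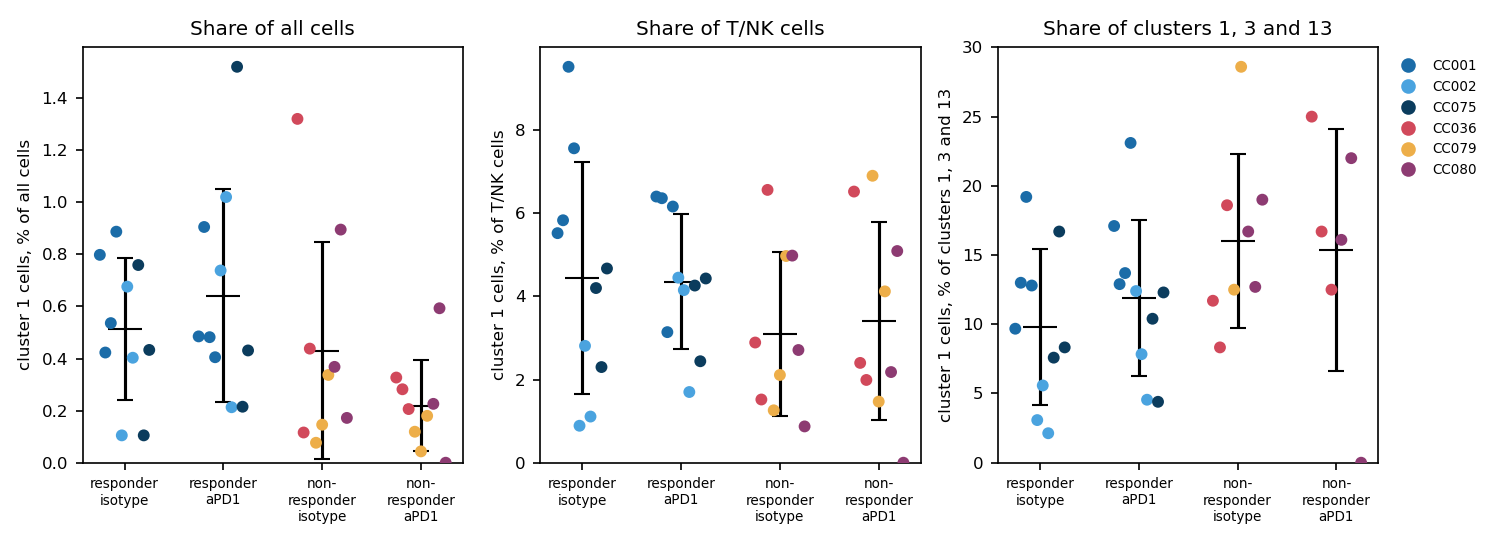
Cluster 1 as a percent of all cells, of T/NK cells and of the cells of clusters 1, 3 and 13, per tumor (points, coloured by strain) with the mean and SD of each group. In aPD1 tumors responder strains averaged 0.641% of all cells against 0.220%, while the shares of T/NK cells were 4.35% and 3.41%.

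With T/NK cells alone as the denominator, the classes overlapped throughout under aPD1. Cluster 1 made up 4.35% ± 1.62 (n = 10) of T/NK cells in aPD1 tumors of responder strains and 3.41% ± 2.37 (n = 9) in those of non-responder strains, a difference of 0.941 points with p = 0.356 in the exact permutation test (adjusted p = 0.763). In isotype tumors the shares were 4.44% ± 2.78 and 3.09% ± 1.97 (exact permutation p = 0.356). As a share of clusters 1, 3 and 13, in tumors with at least 10 such cells, cluster 1 was the lower in responder strains. In isotype tumors it was at 9.80% ± 5.62 (n = 10) against 16% ± 6.27 (n = 8) (exact permutation p = 0.0956, adjusted p = 0.717). Under aPD1 it was at 11.9% ± 5.63 (n = 10) against 15.4% ± 8.76 (n = 6) (exact permutation p = 0.263), and none of these 6 tumors was of CC079 hosts. Among all cells of these clusters in a strain, cluster 1 made up 30.4% in CC079, from 14.1% to 18% in CC001, CC036, CC007 and CC080, and from 7.00% to 11.9% in CC002, CC075 and B6. The CC079 value rests on 21 cells of cluster 1, 31 of cluster 3 and 17 of cluster 13. Of these 21, 2 held a CD8 UMI.

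Because most T/NK cells with cycle transcripts lay outside cluster 1, their share of all T/NK cells was compared as well, a measure added after the data were seen. In responder strains it was 15.6% ± 4.63 (n = 10) under aPD1 and 11.2% ± 5.59 (n = 10) under isotype, and it was higher under aPD1 in 9 of 10 pairs. A permutation test of ranks gave p = 0.0505 (adjusted p = 0.197 over 5 comparisons). With the pool as a block, exact sign flips of the 10 differences gave p = 0.0137 (adjusted p = 0.0547 over 4 comparisons), so neither test passed after adjustment. In non-responder strains the shares were 12.4% ± 5.17 (n = 9) and 11.1% ± 4.87 (n = 9), higher in 6 of 9 pairs (exact permutation p = 0.475, with the block exact p = 0.445). The difference between the effects was 3.04 points (exact permutation p = 0.0789, adjusted p = 0.197).

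The second comparison asked which genes differed within cluster 1 between the strain classes. It used the summed counts of 16 responder and 9 non-responder tumors, with no term for strain. Of 803 genes tested, 2 passed an adjusted p of 0.05 in edgeR's quasi-likelihood test (0.249%), and 43 had an unadjusted p below it. One was higher and one lower in responder strains, and both carry the sequence of 1 ribosomal protein. Rps18, at chr17:33951999-33956001, encodes a protein of the small ribosomal subunit. Its level ranged from 1832 to 3584 CPM in responder tumors (median 2709.7) and from 513 to 1939 CPM in non-responder tumors (median 1561), with a log2 difference of 0.82 (SE 0.14, adjusted p = 0.000617). The ranges overlapped only between 1832 and 1939 CPM. Gm10260, at chr13:97760072-97760632, ranged from 0 to 21.2 CPM in responder tumors and from 342 to 1616 CPM in non-responder tumors, with a log2 difference of -7.69 (SE 0.34, adjusted p = 4.02e-17). Its groups did not overlap. The fitted difference depends on the prior count, since all responder cells together held 3 UMIs of Gm10260 against 494 in non-responder cells, a ratio of 391 in CPM with a counting interval of 133 to 1903.

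These 2 genes are near copies, and their reads cannot be assigned apart with certainty. The Gm10260 transcript aligned to that of Rps18 over 545 bases with 5 mismatches (99.1% identity). The sum of both per tumor ranged from 1832 to 3584 CPM in responder strains (median 2709.7) and from 855 to 3275 CPM in non-responder strains (median 2649). The medians of the sum thus lay close together, while the division between the copies differed by strain. Of the summed UMIs in cluster 1, Gm10260 took 34.7% in CC036, 39.8% in CC079, 42.6% in CC080 and 38.1% in CC007, which has no class. In CC001, CC002, CC075 and B6 it took at most 0.243%. Other T/NK cells and macrophage cluster 2 of these strains gave similar shares, from 38.8% to 42.0% in the first 4 and at most 0.471% in the others. Rps18 no longer passed in tumors with at least 10 cells (log2 difference 0.77, adjusted p = 0.123), in cells with a CD8 UMI alone (0.74, adjusted p = 0.160) or without CC001 hosts (0.79, adjusted p = 0.172). Without the CC080 aPD1 tumor of pool 4, Rps18 and Gm10260 were again the 2 genes called, of 909 tested (Rps18 log2 difference 0.88, adjusted p = 0.00292 in edgeR). Further genes passed in some other settings. With at least 10 cells per tumor Ifitm2 passed, and with at least 3 cells Ly6a and Plac8 did. Without CC036 hosts Ifitm2, Ly6a and Ifi27l2a passed, and without CC080 hosts Nfkb1, Gm47283, Prkca, Fbxo11 and Zc3h7a did. Over summed cells Ly6a was at 1997 CPM in CC079, 2001 in CC080 and 432 in CC036, against 461 to 569 in the responder strains.

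**Figure D5:**
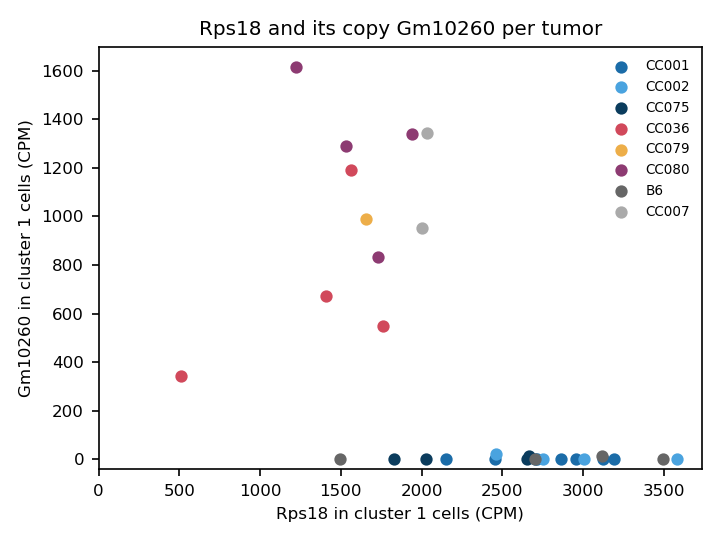
Level of Rps18 (x axis, CPM) against that of Gm10260 (y axis, CPM) in cluster 1 cells, 1 point for each of the 31 tumors, coloured by host strain. Gm10260 lies at or below 21.2 CPM in CC001, CC002, CC075 and B6 and between 342 and 1616 CPM in the others.

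No other gene passed between the classes in the fit of 803 genes. Of the 8 histone genes tested, 7 had a positive difference (median log2 0.24), and 0 passed, and of 10 cell-cycle genes 8 were positive (median 0.10), against a median of -0.02 over all 803 genes. Mki67 was at 642 CPM in responder and 641 CPM in non-responder cells, with a log2 difference of -0.05 (SE 0.20). Hist1h1b differed by 0.04 (SE 0.26) and Hist1h2ae by 0.33 (SE 0.26). The 5 regulatory T cell genes tested all had negative differences (median -0.50), with Ctla4 at -0.60 (SE 0.30) and Ikzf2 at -0.38 (SE 0.35), neither of which passed. Cd8a differed by 0.32 (SE 0.22). In the tumors fitted, the share of cells with a CD8 UMI averaged 72.5% (responder) and 55.8% (non-responder) under aPD1 and 71.3% and 59.4% under isotype, and its part in these differences was not tested. The remaining lists with 4 or more genes tested had medians between -0.38 (transcription factors of exhaustion and effector function) and 0.46 (Ly49 and NKG2 receptors), with 0 genes called.

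The third comparison asked which genes changed under aPD1 within cluster 1. In responder strains 0 of 881 genes (0%) passed in edgeR, with 24 at an unadjusted p under 0.05 and 0 called by DESeq2. Ccl4 ranged from 449 to 4093 CPM in the 7 isotype tumors (median 1173) and from 387 to 5925 CPM in the 9 aPD1 tumors (median 2240.1), a log2 difference of 0.57 (SE 0.50). Ifng ranged from 96.0 to 450.2 CPM (median 179.7) under isotype and from 88.2 to 1449 CPM (median 162) under aPD1, with a log2 difference of 0.85 (SE 0.54). The 3 highest values of Ifng came from aPD1 tumors (1449, 884 and 875 CPM). The other 6 aPD1 tumors ranged from 88.2 to 226 CPM, and the lowest of them lay below all isotype tumors. Mki67 ranged from 550.3 to 1072 CPM (median 699) under isotype and from 336 to 999 CPM (median 628) under aPD1, with a log2 difference of -0.10 (SE 0.24). The medians of 10 histone genes (0.10) and 11 cell-cycle genes (0.16) stood beside -0.01 over all genes.

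In non-responder strains 5 isotype and 4 aPD1 tumors had enough cells, and none of the aPD1 tumors was from CC079 hosts. Of 585 genes, 0 passed in edgeR (0%), with 29 at an unadjusted p under 0.05 and 0 called by DESeq2. With the pool as a block 4 genes passed, with Bcl2, Ikzf2 and Dennd4a higher and Ccl4 lower under aPD1. Their blocked log2 differences were 2.41 (SE 0.48), 1.71 (SE 0.36), 1.25 (SE 0.33) and -3.20 (SE 0.35). In the 3 pairs of tumors from the same pool and strain, Ccl4 was at 2981 CPM under isotype and 78.8 under aPD1 (CC080, pool 3), at 2690.2 and 394 (CC080, pool 4) and at 3534 and 487 (CC036, pool 8). Over all 9 tumors the groups overlapped, from 29.1 to 3534 CPM under isotype and from 78.8 to 2507 CPM under aPD1. Without the block Ccl4 differed by -0.96 (SE 1.05) and Dennd4a by 1.63 (SE 0.72) on the log2 scale. Ikzf2 differed by 0.59 (SE 0.60) on the log2 scale and Bcl2, an inhibitor of apoptosis, by 2.09 (SE 0.74). Ikzf2 ranged from 115 to 1922 CPM in isotype and from 852 to 1728 CPM in aPD1 tumors, which overlap. In the 3 pairs it was at 822 CPM under isotype and 907 under aPD1 (CC080, pool 3), at 309 and 1728 (CC080, pool 4) and at 115 and 852 (CC036, pool 8). The value of 1728 CPM was that of the CC080 aPD1 tumor of pool 4, and the other 3 aPD1 tumors ranged from 852 to 907 CPM. Without that tumor 0 of 659 genes passed in edgeR, both with the pool as a block, where 16 had an unadjusted p under 0.05, and without it, where 41 had. The 4 genes called under the block did not pass without this tumor. Fewer pairs were then left, so this does not show that their differences depended on it. The 6 histone genes tested had a median of -0.19 and the 9 cell-cycle genes one of 0.35.

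The effects of aPD1 were then compared between the classes in 1 model. Of 1182 genes, 0 passed in edgeR (0%), with 64 at an unadjusted p under 0.05 and 0 called by DESeq2. Tox differed by -1.77 (SE 0.59), Ctla4 by 1.47 (SE 0.57) and Ccl4 by 1.82 (SE 1.07) on the log2 scale, each with an adjusted p of at least 0.822 in edgeR. Among 14 histone genes 11 were positive (median 0.32), and among 11 cell-cycle genes 5 were positive (median -0.04), beside a median of 0.02 over all genes. Without the CC080 aPD1 tumor of pool 4, 0 of 1417 genes passed in edgeR, with 134 at an unadjusted p under 0.05.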

How the data were processed

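Values were UMI counts per gene and cell, deposited by the authors with a table of strain, treatment, pool and cluster number per cell. Per the labels and methods, reads were aligned to GRCm38 (mm10) with Cell Ranger, and cells were filtered on mitochondrial and ribosomal share and clustered with Seurat 5.0.1 after regressing out cell-cycle phase and correcting for processing date. Cluster numbers were used as deposited. T/NK clusters were 1, 3, 7, 8, 10, 12, 13, 23 and 24. Members, gene lists and tests were chosen with earlier results of these data known. Counts were summed per tumor (31 tumors with at least 5 cluster 1 cells, from 16440 to 154276 UMIs each) and tested with edgeR 4.0.16 (TMM, filterByExpr, quasi-likelihood, treatment as a covariate between classes, Benjamini-Hochberg). At these counts a gene that did not pass was not shown to be unchanged. DESeq2 1.42.0 was an alternative. Shares were compared over tumors by two-sided exact permutation tests of ranks, or of 100000 draws where both groups held 10 tumors. The tumors held at least 20 T/NK cells, or 10 cells of clusters 1, 3 and 13, where these were the denominator. Tumors of 1 pool shared a library, as the labels say, and the pool was a block in an alternative. No doublet caller was run, and cells with at least 3 macrophage UMIs were left out as an alternative. Folds used CPM with 1 added. Named genes were the 25 of largest fold over other T/NK cells, the 10 highest and 10 lowest against clusters 3 and 13 (at least 50 CPM, in at least 10% of cells), genes called by edgeR, and genes of the lists. Gene positions were read from the GRCm38 annotation. The tests were tried on simulated data.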

Additional observations from a re-analysis of the deposited data

Results flagged for a closer look

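Of 30 groups of 4 to 10 tumors examined, 3 held a tumor whose gap to the nearest other exceeded Dixon's 95% critical value, and chance alone flags about 1 group in 20. Among the 4 CC001 aPD1 tumors, that of pool 2 had a cluster 1 share of 0.905% of all cells, with the other 3 between 0.405 and 0.485% (gap over range 0.841). In the same group the tumor of pool 4 had a cluster 1 share of 3.14% of T/NK cells, and its gap over range was 0.927. Among the 10 isotype tumors of responder strains, the CC001 tumor of pool 4 had the highest share of T/NK cells with at least 5 cell-cycle UMIs, 23.5% (gap over range 0.476).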

How the results depend on the processing

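Of 225 recomputed share comparisons, 205 kept their direction and side of the threshold, 17 turned direction and 3 passed the threshold. The class difference under aPD1 in the share of all cells passed without CC080 hosts (0.448 points), without the CC080 aPD1 tumor of pool 4, and without both tumors of the shared animal identifier (0.468 points in each). The last 2 settings compare the same aPD1 tumors, since the other tumor of that identifier was an isotype tumor. The cause of these changes was not tested. Leaving out 1 strain gave ranges, in points of all cells, of -0.0388 to 0.180 (class, isotype; -0.0160 without CC001), 0.369 to 0.470 (class, aPD1), 0.0601 to 0.275 (aPD1, responder), -0.279 to -0.139 (aPD1, non-responder) and 0.267 to 0.486 (interaction). For T/NK cells they were -0.432 to 2.56, 0.162 to 1.33, -0.913 to 0.908, -0.221 to 0.686 and -1.23 to 0.594 (interaction 0.130 without CC079), and for clusters 1, 3 and 13 they were -8.78 to -3.55, -6.74 to -0.849, 0.937 to 3.73, -5.18 to 2.11 (0.882 without CC079) and -3.12 to 5.47. Within pools 7 to 12 the share of T/NK cells turned to -0.229 (aPD1, non-responder) and 0.0621 (interaction). Within pools 1 to 6 the share of clusters 1, 3 and 13 turned to 1.47 (aPD1, non-responder) and -1.73 (interaction), and the former turned to 0.0647 without possible doublets and to 0.882 with the pool as replicate block. None of the reversed differences passed the test in either direction. With the pool as replicate block the class difference under aPD1 was 0.518 points (exact p = 0.0234, adjusted p = 0.258) and did not pass, and no call changed under the block for the class and aPD1 comparisons of the 5 shares. Without the CC080 aPD1 tumor of pool 4 the effect of aPD1 in non-responder strains on the share of cells with a CD8 UMI turned from -3.66 to 2.81 points. Genes called between classes were 19 with any count in place of the filter, 4 with at least 3 cells per tumor, 1 in cells with a CD8 UMI alone and 1 to 7 without 1 strain, against 2. Testing genes with any count called 4 (aPD1, responder), 5 (aPD1, non-responder) and 11 (interaction) where 0 had been called, the pool block called 4 in non-responder strains (0 without the CC080 aPD1 tumor of pool 4), and at least 10 cells per tumor called 1 for the interaction, Xist. The fit with at least 10 cells could not be made for aPD1 in non-responder strains, nor that of CD8 cells for non-responder strains or the interaction. Thinned to 500 UMIs, 30.9% of cluster 1 cells held a CD8 UMI. In 250 bases before the start, CCAAT stood in all 12 leading histone promoters and 33.8% of all promoters, and TATAAA in 66.7% and 12.4%. Cluster 1 cells numbered 0 to 41 per tumor.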

Other observations

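Further lists were set against clusters 3 and 13. Of 11 interferon-stimulated genes in the table, 8 were higher in cluster 1 than in clusters 3 and 13 together (median log2 difference 0.19). Ifi27l2a was at 858 against 705 CPM, a small difference beside those of histone genes. All 7 regulatory T cell genes were higher (median log2 difference 0.33). Their sum was 1753 CPM in cluster 1, 979 CPM in cluster 3 and 1888 CPM in cluster 13. Of 14 genes of naive and memory T cells 5 were higher (median -0.34), with Bach2 at 89.7 against 216 CPM and Klf2, which controls exit from tissue, at 68.9 against 48.4 CPM. Of 8 tissue-residency genes 4 were higher (median -0.01). Immediate early and heat shock genes, often raised when tissue is dissociated, summed to 2044 CPM in cluster 1 and 2319 CPM in cluster 3, and 5 of 10 were higher.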
